A study of Mus musculus with 145 samples.

Results

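The collagen genes are the genes of the triple-helical proteins that build the fibres, sheets and anchoring structures of the extracellular matrix. They were taken from the deposited table as every gene whose mouse symbol is Col, a number, a and a number (the alpha chains), with a mean level of at least 1 CPM (counts scaled to a common library total) over all 145 libraries. Of the 55416 genes in the table, 44 carry such a symbol and 36 pass the level, 10 of them fibrillar collagens, 10 basement membrane collagens and 16 others. The member just inside that level was Col11a2 with a mean of 1.21 CPM, and the gene just outside it was Col26a1 with 0.977 CPM. The classes follow textbook use, with the type IV chains, Col7a1, Col15a1, Col17a1 and Col18a1 counted as basement membrane. All 36 members passed the separate filter on low counts and were tested.

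Mice were exposed once, under a sunbed canopy with 8 fluorescent lamps (100 W), to a mixture of 96.4% UVA and 3.6% UVB, or were handled without light (sham). Sham and 4 doses (5, 10, 20 and 40 mJ/cm2) were each followed for 6 times (0, 6, 24, 48, 72 and 96 h), which makes 30 groups of dorsal skin. There were 5 animals in 25 groups and 4 animals in 5 groups, namely 20 mJ/cm2 at 48 h and the 4 irradiated groups at 96 h; the missing samples were lost to early deaths or little RNA, per the submitters. Each library is one animal, and replicate numbers given here only name the animals. The strain, genotype, sex and age, and anything else that all groups shared, are not given in the sources used for this text. The question behind each comparison is how skin RNA at a dose and time differed from that of sham animals of the same time.

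Collagen chains are wound into triple helices inside the cell, secreted, trimmed and cross-linked. In the dermis fibroblasts make the fibrils, in which type I collagen (chains of Col1a1 and Col1a2) and type III collagen (Col3a1) carry most of the mass and type V collagen nucleates the fibre. The basement membrane under the epidermis and around vessels and muscle fibres is a sheet of type IV collagen, held to the dermis by type VII anchoring fibrils and to keratinocytes by the transmembrane collagen XVII. Type IV chains assemble in fixed sets: Col4a1 with Col4a2 nearly everywhere, and Col4a5 with Col4a6 in the skin's basement membrane. The remaining collagens include beaded microfibrils (type VI), fibril-associated bridges (types XII and XIV), short-chain networks (type VIII) and membrane-spanning collagens (types XIII and XXIII). Ultraviolet light is known in skin for lowering type I collagen synthesis and for raising enzymes that cut collagen.

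The 4 sequences shown are upstream of the start sites of the genes on which the results turn and whose windows the reference table holds: 2 neighbouring type IV genes and Col23a1, which fell at 6 h, and Col8a1, which rose at 48 h. They are given in the direction of transcription from RefSeq, build GRCm38.p6, which is not the build of the deposited table (GRCm39), and capitals mark GGGCGG (or CCGCCC, the same site on the other strand) and CCAAT (or ATTGG).
Col4a6, chrX:141474077-141474326, minus strand: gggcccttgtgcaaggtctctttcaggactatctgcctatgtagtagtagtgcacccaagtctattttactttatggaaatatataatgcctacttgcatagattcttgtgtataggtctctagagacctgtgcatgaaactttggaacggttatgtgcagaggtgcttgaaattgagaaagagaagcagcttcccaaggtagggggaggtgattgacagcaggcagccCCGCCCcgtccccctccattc
Col4a5, chrX:141475169-141475384, plus strand: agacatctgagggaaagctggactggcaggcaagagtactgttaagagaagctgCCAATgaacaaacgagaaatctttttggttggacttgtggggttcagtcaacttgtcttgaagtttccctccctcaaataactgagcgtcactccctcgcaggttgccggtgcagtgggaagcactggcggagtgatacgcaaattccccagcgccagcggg
Col23a1, chr11:51289670-51289919, plus strand: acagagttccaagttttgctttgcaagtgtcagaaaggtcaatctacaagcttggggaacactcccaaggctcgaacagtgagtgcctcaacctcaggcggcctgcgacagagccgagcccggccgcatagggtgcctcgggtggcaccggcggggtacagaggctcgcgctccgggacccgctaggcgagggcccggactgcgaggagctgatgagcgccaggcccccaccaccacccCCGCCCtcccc
Col8a1, chr16:57754738-57754987, minus strand: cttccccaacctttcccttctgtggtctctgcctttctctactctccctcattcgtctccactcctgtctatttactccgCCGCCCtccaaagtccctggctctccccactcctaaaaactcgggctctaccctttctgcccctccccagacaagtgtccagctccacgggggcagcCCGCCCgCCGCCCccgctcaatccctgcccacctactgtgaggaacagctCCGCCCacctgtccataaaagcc
The Col4a5 run stops 34 bases before the start, where an annotated exon lies, and the gene of that exon was not determined. The starts of Col4a5 and Col4a6 lie 1343 bases apart on opposite strands, so that the genes point away from each other. In 32851 windows around annotated starts, the 250 bases before the start were searched. GGGCGG was present there on either strand in 32.7% and CCAAT in 33.8%. Windows were held for 29 members, of which 18 had GGGCGG and 10 had CCAAT. The letters TATAAA were present in 4 members and 12.4% of all windows, and TGANTCA in 1 member and 6.75% of all windows. These are letter matches only. No window was held for Col1a1, Col5a2, Col14a1, Col12a1, Col4a3, Col9a3 and Col22a1.

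Library totals ran from 0.18 to 64.6 M counts (M for mega), the median being 11.1 M, and 2 of them held under 1 M. These were 1 animal each of 20 mJ/cm2 at 0 h and 10 mJ/cm2 at 6 h. Neither is in a 40 mJ/cm2 or sham group, but each entered the joint fit of its time. The 36 collagen genes made up 2.48% to 9.83% of a library's scaled total, on which CPM is based, with a median of 5.18%. The 10 fibrillar genes made up most of that, with a median of 4.82%. These are not shares of the raw counts. Markers of the labelled tissue were present in every library: the summed level was 3395 to 10029 CPM for 9 fibroblast markers and 1271 to 11692 CPM for 6 basal keratinocyte markers. Skeletal muscle markers summed to 4489 to 69919 CPM, so the samples held muscle RNA as well, at levels that differed between animals. Where this muscle lay is not given. Hair shaft markers ran from 0 to 172 CPM. The labels mark 71 libraries with a title ending R1_001 and 74 with R1; what the ending means is not given, and it was carried as a covariate. The titles of 5 libraries begin with the word repeat, 1 each at 20 mJ/cm2 at 0, 24 and 48 h, 5 mJ/cm2 at 48 h and 40 mJ/cm2 at 96 h, and the first of these is one of the 2 libraries under 1 M.

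Levels per length are CPM divided by the joint length of all annotated exons of a gene in kilobases (RPKM, mean ± SD over the 145 animals). This length can exceed that of any 1 transcript. By this measure type III and type I chains stood above all other members. Col3a1 was at 1785 ± 451 RPKM, Col1a1 at 1669 ± 662 and Col1a2 at 1553 ± 441, which are not apart by more than their spread. Their order rests on lengths of 9816, 6563 and 12426 bases. In CPM, without length, their means were 17524, 10956 and 19301. Col6a1, a type VI chain, followed at 153 ± 45.9 RPKM and Col17a1 at 101 ± 34.3. The leading basement membrane genes after Col17a1 were Col4a1 with 51.0 ± 20.1 RPKM and Col15a1, a proteoglycan collagen of basement membrane zones, with 33.1 ± 9.89. Col6a2 with 55.9 ± 23.7 and Col6a3 with 46.9 ± 14.4 RPKM led the other class with Col6a1. The chains on which most of the results below turn were far lower per length, with 5.73 ± 5.21 RPKM for Col12a1, 4.64 ± 1.21 for Col4a5, 4.08 ± 1.42 for Col23a1, 2.54 ± 1.08 for Col4a6 and 1.96 ± 0.897 for Col8a1.

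Collagen RNA differed from sham at 20 and 40 mJ/cm2 and at no lower dose by the test used (edgeR quasi-likelihood, Benjamini-Hochberg adjusted p under 0.05 over the 18677 genes tested, called below). A difference is a log2 fold change, irradiated minus sham of the same time, with its standard error (SE). At 40 mJ/cm2, 3 members fell at 6 h, where 4.89% of all genes were called (2.14% up, 2.75% down). At 24 h 1 member rose and 1 fell, against 2.92% of all genes (1.65% up, 1.26% down). At 48 h 2 rose and 5 fell, the most of any time, against 7.73% of all genes (3.97% up, 3.76% down). At 72 h 1 rose and 1 fell, against 1.26% of all genes (1.04% up, 0.22% down). The called members are 8.33%, 5.56%, 19.4% and 5.56% of the 36 at those times, and the list as such was not tested. At 20 mJ/cm2 the same 3 members as at 40 mJ/cm2 fell at 6 h, against 0.434% of all genes (0.273% down), which is 8.33% of the members.

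No member was called at 40 mJ/cm2 at 0 h, where 0% of all genes were called, or at 96 h, where 0.118% were. At an unadjusted p under 0.05, edgeR had 0 members at 0 h (4.45% of all genes) and 3 at 96 h (4.74%), and DESeq2 called 0 at both times. At 20 mJ/cm2 no member was called at 0 h (0% of all genes), 24 h (0.075%), 48 h (0.482%), 72 h (0%) or 96 h (0%). There the unadjusted p was under 0.05 for 0, 4, 6, 0 and 3 members, against 5.6%, 6.61%, 21.3%, 1.1% and 4.23% of all genes, and DESeq2 called Col28a1 at 24 h and Col4a6 at 48 h. At 5 mJ/cm2 0 members and 0% of all genes were called at each of the 6 times by edgeR, and DESeq2 called 0 members. The unadjusted p was under 0.05 for 1, 1, 0, 1, 2 and 7 members from 0 to 96 h, against 3.4%, 1.91%, 2.13%, 3.42%, 3.44% and 9.53% of all genes. At 10 mJ/cm2 the counts were again 0 members and 0% of all genes at each time, and DESeq2 called 0 members. The unadjusted p was under 0.05 for 4, 1, 1, 2, 1 and 2 members, against 1.9%, 8.42%, 4.42%, 2.53%, 2.55% and 1.09%.

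**Figure D1:**
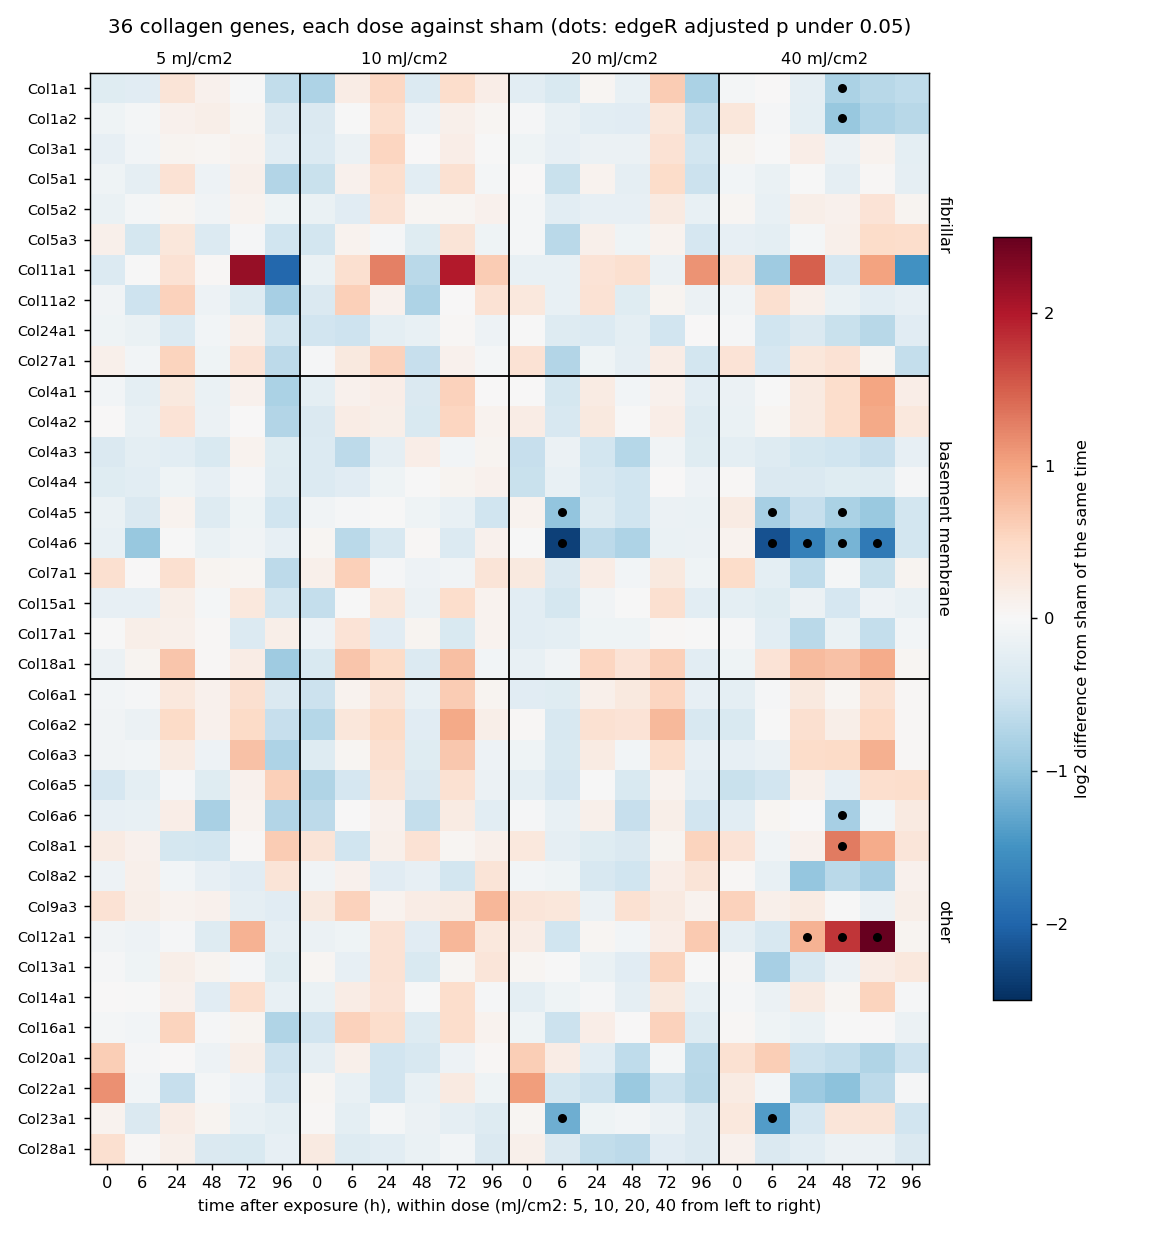
Log2 difference from sham of the same time for the 36 collagen genes (rows, by class) in the 24 comparisons of dose and time (columns); dots mark an edgeR adjusted p under 0.05. Dots lie only in columns of 20 mJ/cm2 at 6 h and 40 mJ/cm2 at 6 to 72 h, and Col4a6 has a dot in each of those 5 columns.

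Among the 10 fibrillar genes, both type I chains fell 48 h after 40 mJ/cm2 and were the only fibrillar members called at any dose and time. Col1a1 was at 14059, 14745, 15087, 15792 and 12599 CPM in the 5 sham animals and at 11831, 6877, 4995, 8625 and 9724 CPM in the 5 irradiated animals. Every irradiated animal was below every sham animal. The log2 difference was -0.79 ± 0.22 (edgeR adjusted p = 0.0261). For Col1a2 the sham animals had 19541, 21873, 24480, 22897 and 22045 CPM and the irradiated animals 13714, 10720, 6689, 13130 and 13861 CPM, again without overlap. The log2 difference was -0.94 ± 0.23 (edgeR adjusted p = 0.0122). In bulk skin, fewer cells that make a transcript and less of it per cell cannot be told apart, here or for the other genes below. The fibrillar class as a whole made up 5.54 ± 0.54% (SD, n = 5) of the scaled total of the sham animals at 48 h and 3.71 ± 0.78% after 40 mJ/cm2.

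The Col1a2 call held without any 1 of the 10 animals. The Col1a1 call was lost without sham replicate 3 or 4 or without irradiated replicate 2, 3 or 4, and with the skeletal muscle level as a covariate (-0.54, edgeR adjusted p = 0.128). It was also lost in 1 fit of all libraries (-0.78, adjusted p = 0.175) and without the filter on low counts (-0.80, adjusted p = 0.0573). Skeletal muscle moved with the type I chains: 7 of 12 muscle markers fell at 48 h, with summed levels of 29856 to 49853 CPM in sham and 14280 to 24876 CPM after 40 mJ/cm2. With that covariate Col1a2 remained called (-1.07, adjusted p = 0.0116). Of the 9 fibroblast markers 1 rose and none fell, and their summed level was 5533 to 6963 CPM in sham and 5352 to 7119 CPM in irradiated skin. Within the R1_001 libraries the differences were -0.64 for Col1a1 and -0.77 for Col1a2, and within the R1 libraries -0.90 and -1.04, none of them called.

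Col3a1, the type III chain, was not called at 48 h. The sham animals had 13281, 17363, 21533, 16998 and 17065 CPM and the irradiated animals 15832, 14877, 11835, 17667 and 17499 CPM, and the groups overlapped. The log2 difference was -0.15 ± 0.22 (edgeR adjusted p = 0.809). The ratio of Col3a1 to Col1a2 per length, whose level but not difference from sham depends on the lengths used, was taken in each animal. This and 3 other ratios were chosen after the values were seen. It was 0.860, 1.00, 1.11, 0.940 and 0.980 in sham animals at 48 h and 1.46, 1.76, 2.24, 1.70 and 1.60 after 40 mJ/cm2. Every irradiated animal lay above every sham animal. The log2 difference of the ratio was 0.83 ± 0.12 (exact permutation p = 0.00794, two-sided, the smallest that 5 against 5 allows, and 0.0381 adjusted over 24 tests of 4 ratios at 6 times).

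At 72 h the ratio of Col3a1 to Col1a2 was higher again, with sham animals from 0.867 to 1.37 and irradiated animals from 1.41 to 2.24 (log2 difference 0.91 ± 0.17, exact permutation p = 0.00794, adjusted 0.0381). It was 1.02 in sham and 1.37 after 40 mJ/cm2 at 24 h, and 1.06 and 1.45 at 96 h (geometric means), where the adjusted exact permutation p was 0.0952 each time. At 0 and 6 h the log2 differences of the ratio were -0.30 ± 0.17 and -0.01 ± 0.10. The ratio of the 2 type I chains to each other, Col1a1 to Col1a2, did not pass at any time, with log2 differences of -0.30 to 0.14. At 48 h that difference was 0.14 ± 0.10.

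**Figure D2:**
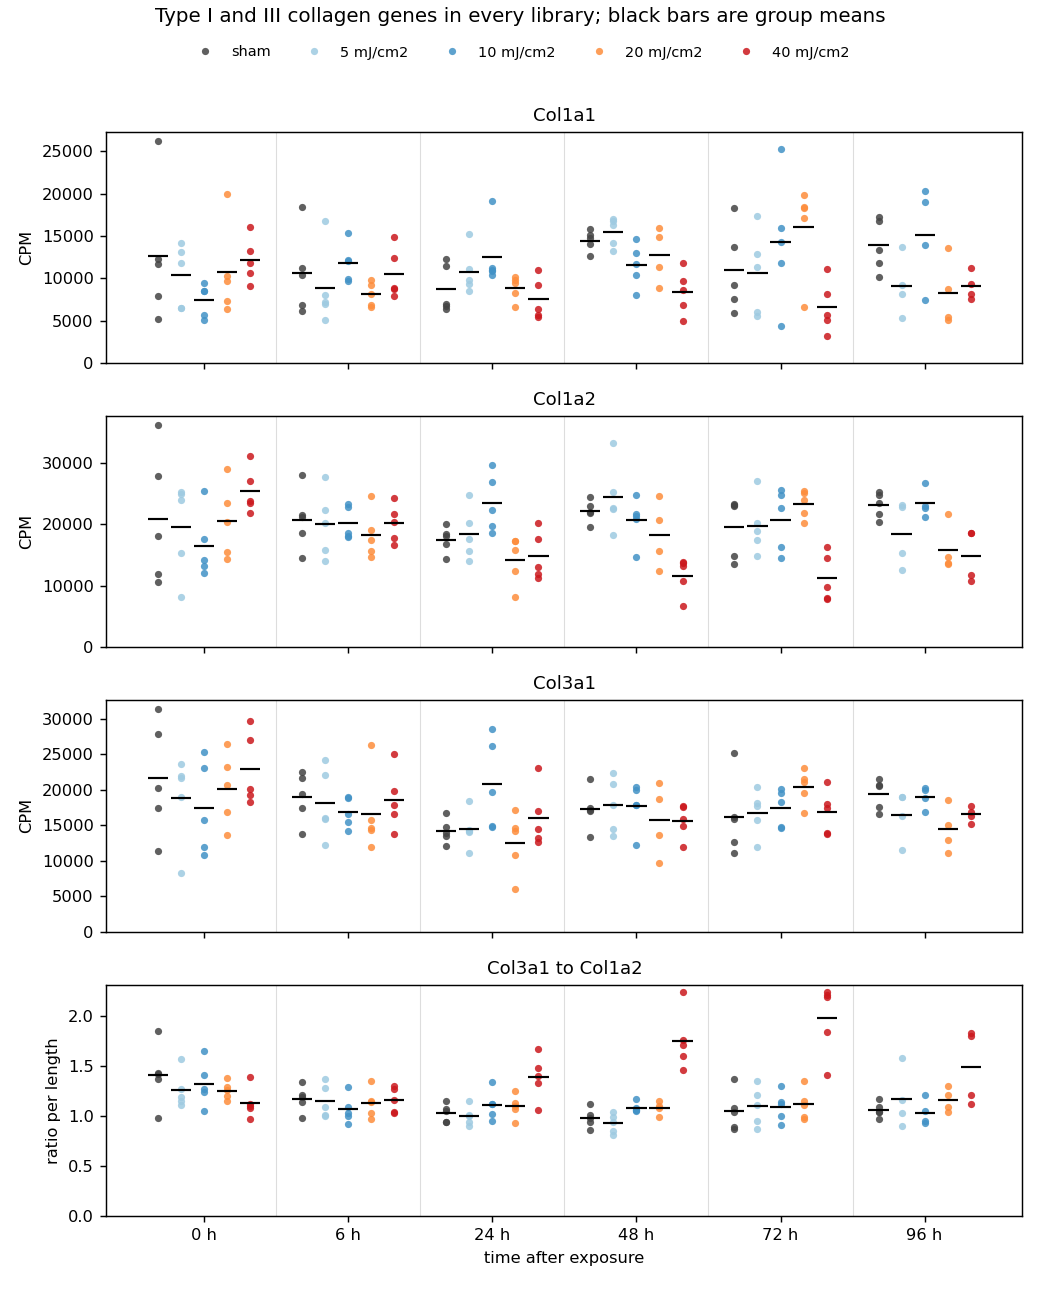
CPM of Col1a1, Col1a2 and Col3a1 and the ratio of Col3a1 to Col1a2 per length in each animal for sham and 4 doses at 6 times after exposure, with group means as black bars. At 48 h the 5 animals given 40 mJ/cm2 lie below the 5 sham animals for Col1a1 and Col1a2, overlap with them for Col3a1, and lie above them for the ratio.

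At the other times and doses no fibrillar gene was called. Col1a2 after 40 mJ/cm2 was at 8005, 7868, 14515, 9841 and 16218 CPM at 72 h against 14819, 13529, 23330, 22894 and 23170 CPM in sham, with 2 irradiated animals inside the sham range (-0.77 ± 0.24, edgeR adjusted p = 0.136). At 96 h the Col1a2 difference was -0.69 ± 0.25 (adjusted p = 0.697, n = 4 against 5). Of the chains that start and thin the fibre, Col5a2 differed by 0.10 ± 0.18 and Col5a1 by -0.23 ± 0.19 at 48 h. Median differences of the 10 fibrillar genes at 40 mJ/cm2 were -0.17 at 6 h, 0.06 at 24 h, -0.20 at 48 h, 0.03 at 72 h and -0.26 at 96 h. Medians over all genes tested lay between -0.02 and 0.05 at those times.

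Col11a1, a fibrillar chain best known from cartilage, was the most uneven member. Among the 5 animals given 5 mJ/cm2 and taken at 72 h it ranged from 9.84 to 174 CPM, and the difference from sham was 2.18 ± 0.87 without being called (edgeR adjusted p = 1). In sham skin at 48 h replicate 2 had 88.8 CPM and the other 4 animals 5.29 to 10.8 CPM. In the same animal the hair shaft markers summed to 89.2 CPM, against 0.37 to 4.75 CPM in the other 4, and the part of hair in these levels was not tested.

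Among the 10 basement membrane genes, Col4a6 and its partner Col4a5 on the X chromosome fell, and no basement membrane member rose. Col4a6 (ENSMUSG00000031273) was called at 5 of the 24 dose and time comparisons, more than any other member. At 6 h the sham animals had 31.0, 26.0, 27.3, 28.6 and 27.7 CPM. After 20 mJ/cm2 it was at 4.20, 5.11, 4.33, 3.99 and 10.4 CPM, and after 40 mJ/cm2 at 12.6, 4.59, 3.03, 5.19 and 5.75 CPM. All 10 animals of the higher doses lay below all 5 sham animals. The log2 difference was -2.34 ± 0.37 at 20 mJ/cm2 (edgeR adjusted p = 0.0041) and -2.17 ± 0.37 at 40 mJ/cm2 (adjusted p = 0.0012). At the lower doses, where it was not called, it was at 12.8, 18.9, 15.7, 11.7 and 12.5 CPM after 5 mJ/cm2 and at 11.2, 13.5, 10.3, 38.7 and 10.9 CPM after 10 mJ/cm2. These 2 groups lay below sham except for 1 animal of the 10 mJ/cm2 group, which lay above it, and the differences were -0.95 ± 0.35 and -0.67 ± 0.36 (adjusted p = 1 and 0.602). The value of 10.9 CPM came from a library of only 0.18 M counts and so rests on very few reads.

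Col4a6 was still lower at 24 h after 40 mJ/cm2, with 9.22, 12.6, 11.8, 9.46 and 4.95 CPM against 30.0, 33.7, 24.3, 27.8 and 36.1 CPM in sham. The groups did not overlap, and the difference was -1.69 ± 0.24 (edgeR adjusted p = 0.00054). At 48 h sham animals had 19.8, 24.4, 27.3, 32.4 and 24.4 CPM and irradiated animals 14.8, 12.0, 6.87, 14.0 and 10.6 CPM (-1.16 ± 0.21, adjusted p = 0.0013), again without overlap. At 72 h the irradiated animals were spread widely, with 3.11, 7.50, 15.7, 3.44 and 17.0 CPM against 29.2, 28.5, 24.6, 37.1 and 35.9 CPM (-1.76 ± 0.37, adjusted p = 0.0186). All 5 were below sham, yet replicates 3 and 5 stood well above replicates 1 and 4. At 96 h irradiated animals had 19.6, 17.3, 20.2 and 10.9 CPM against 19.7 to 25.5 CPM in sham, which overlap (-0.45 ± 0.24, adjusted p = 1). Right after exposure, at 0 h, the groups overlapped as well, with 13.0 to 25.5 CPM after 40 mJ/cm2 and 14.5 to 23.5 CPM in sham.

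The Col4a6 calls at 6, 24 and 48 h held without any 1 animal. The call at 72 h was lost without sham replicate 2, 4 or 5 or without irradiated replicate 1 or 4. Those 2 irradiated animals also had the highest summed level of 4 neutrophil markers at 72 h, 432 and 779 CPM, against 35.4, 14.9 and 9.40 CPM in the other irradiated animals and 3.37 to 12.4 CPM in sham. Within the title endings the difference at 40 mJ/cm2 was -2.10 (R1_001, edgeR adjusted p = 0.0104) and -2.36 (R1, 0.957) at 6 h, and -1.38 and -2.18 at 24 h. It was -0.76 and -1.41 at 48 h and -2.51 and -1.42 at 72 h. At 20 mJ/cm2 and 6 h it was -2.63 and -1.96. For the basal keratinocytes, which lie on this basement membrane, 6 markers had a median difference of -0.39 at 6 h after 40 mJ/cm2. Their summed level there was 1684 to 4634 CPM in sham and 1459 to 4602 CPM after irradiation. The median of the same markers was -0.02 at 6 h after 20 mJ/cm2. After 40 mJ/cm2 it was 0.26 at 24 h, 0.63 at 48 h, where 1 marker was called up, and 0.31 at 72 h. The part of basal keratinocytes in the Col4a6 levels was not tested.

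Col4a5 (ENSMUSG00000031274), the chain that assembles with Col4a6, fell less. At 6 h it was at 45.2, 34.3, 40.8, 39.0 and 36.1 CPM in sham and at 17.3, 16.3, 20.7, 22.0 and 21.4 CPM after 20 mJ/cm2 (-0.99 ± 0.18, edgeR adjusted p = 0.0123). After 40 mJ/cm2 it was at 30.1, 20.0, 26.5, 19.8 and 13.7 CPM (-0.82 ± 0.18, adjusted p = 0.0070). Neither irradiated group overlapped with sham. The 20 mJ/cm2 call was lost without irradiated replicate 2. At 48 h sham animals had 26.7, 42.9, 44.8, 35.7 and 34.4 CPM and 40 mJ/cm2 animals 26.7, 22.1, 15.4, 22.1 and 21.9 CPM, so that the groups touched at 1 animal each (-0.79 ± 0.19, adjusted p = 0.0121). This call was lost without irradiated replicate 3. At 24 h the difference was -0.59 ± 0.16 and missed the threshold (adjusted p = 0.0504), and at 72 h it was -0.93 ± 0.28 (adjusted p = 0.122).

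The ratio of these 2 neighbouring genes was taken per length in each animal. It was also chosen after the values were seen, so its p-values are not an independent test. Col4a6 to Col4a5 was 0.578, 0.638, 0.564, 0.618 and 0.647 in sham at 6 h and 0.352, 0.193, 0.0964, 0.222 and 0.354 after 40 mJ/cm2. Every irradiated animal was lower than every sham animal (log2 difference -1.47 ± 0.35, exact permutation p = 0.00794, adjusted 0.0381). The same held at 24 h (-1.09 ± 0.14) and 72 h (-0.95 ± 0.20), each with an exact permutation p of 0.00794, adjusted 0.0381. At 48 h the geometric mean went from 0.588 to 0.445 (exact permutation p adjusted 0.0952), and at 0 and 96 h the log2 differences were -0.16 ± 0.23 and 0.02 ± 0.16. The other neighbouring pair, Col4a2 to Col4a1, had log2 differences of -0.10 to 0.09 at the 6 times, none of which passed.

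The other basement membrane members were not called in any comparison of dose with sham. Col4a1 and Col4a2, the widespread type IV pair, differed by -0.01 ± 0.29 and 0.05 ± 0.36 at 6 h and by 0.99 ± 0.42 and 0.95 ± 0.56 at 72 h after 40 mJ/cm2. Col17a1 had its lowest value at 24 h, -0.67 ± 0.29 (edgeR adjusted p = 0.235), and Col7a1, the anchoring fibril chain, -0.63 ± 0.61. Col18a1, the precursor of endostatin, was at 69.2 to 120 CPM in sham and 147 to 189 CPM after 40 mJ/cm2 at 48 h, without overlap, but was not called (0.74 ± 0.30, adjusted p = 0.153). Col15a1 differed by -0.43 ± 0.17 at 48 h (adjusted p = 0.13).

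**Figure D3:**
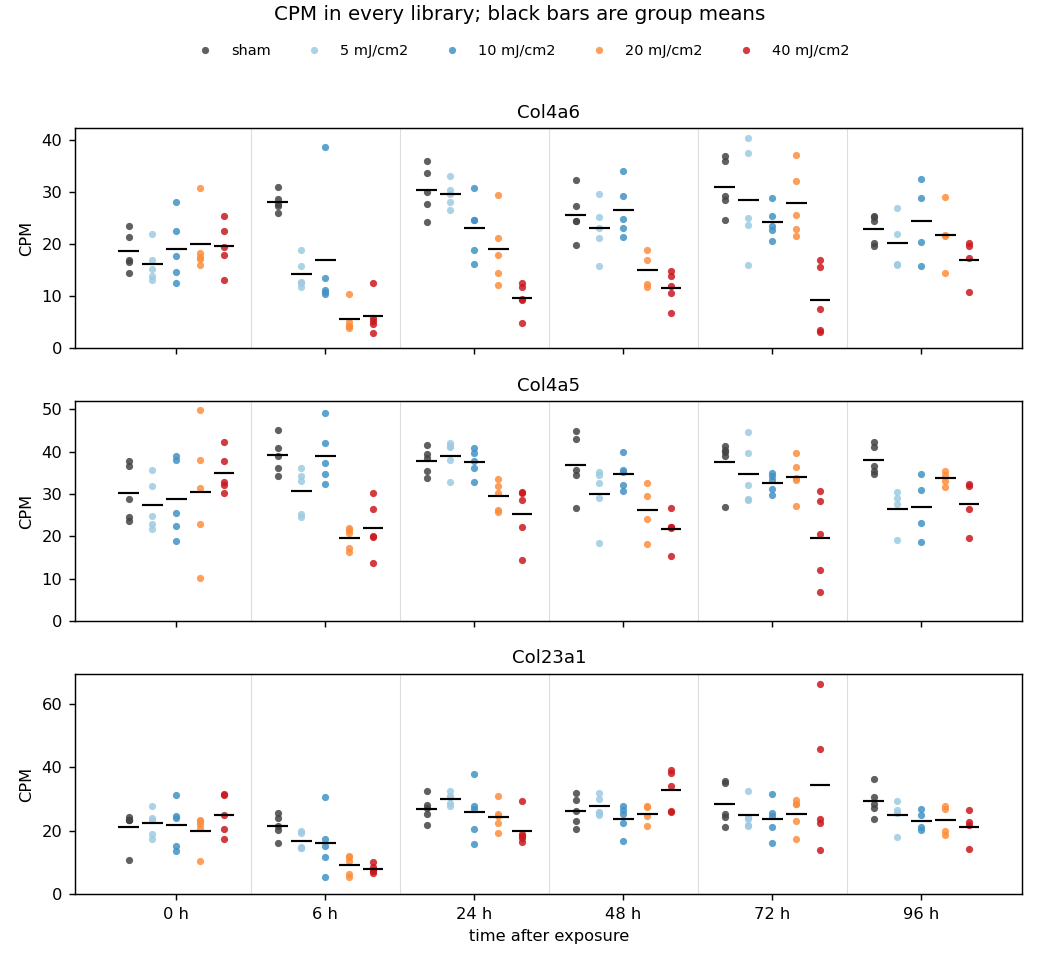
CPM of Col4a6, Col4a5 and Col23a1 in each animal for sham and 4 doses at 6 times after exposure. At 6 h all animals given 20 or 40 mJ/cm2 lie below all sham animals for the 3 genes, and at 48 h Col23a1 after 40 mJ/cm2 lies in or above its sham range.

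Of the 16 other collagens, Col23a1 fell early and Col12a1 and Col8a1 rose late. Col23a1 (ENSMUSG00000063564), a membrane-spanning collagen of keratinocytes and other epithelia, was at 20.2, 23.9, 21.3, 16.1 and 25.5 CPM in sham at 6 h. It was at 6.30, 10.4, 11.5, 5.24 and 11.9 CPM after 20 mJ/cm2 and at 10.0, 6.70, 7.62, 8.56 and 7.29 CPM after 40 mJ/cm2. Both groups lay wholly below sham. The differences were -1.22 ± 0.27 (edgeR adjusted p = 0.0379) and -1.40 ± 0.27 (adjusted p = 0.0029). The 40 mJ/cm2 call held without any 1 animal and was -1.43 within R1_001 and -1.39 within R1 libraries. The 20 mJ/cm2 call was lost without sham replicate 1, 2, 3 or 5 or without irradiated replicate 1, 2, 3 or 4. It was also lost with the hair shaft level as covariate (-1.18, edgeR adjusted p = 0.0509), in a fit of the 2 groups alone (-1.22, 0.166) and within R1_001 (-1.22, 0.0568) and R1 libraries (-1.27, 1). At 48 h Col23a1 after 40 mJ/cm2 was at 26.2, 25.8, 38.1, 39.2 and 33.9 CPM against 23.0, 26.0, 29.6, 31.8 and 20.4 CPM in sham, and was not called (0.31 ± 0.16, adjusted p = 0.31).

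Col12a1 (ENSMUSG00000032332), which codes for a collagen on the surface of type I fibrils, was the member that rose most. At 24 h after 40 mJ/cm2 it was at 113, 103, 132, 78.0 and 89.2 CPM against 51.9, 43.7, 80.4, 60.1 and 47.4 CPM in sham, overlapping by 1 animal each (0.87 ± 0.23, edgeR adjusted p = 0.0406). At 48 h it was at 119, 158, 373, 332 and 271 CPM against 43.4, 151, 51.9, 43.1 and 39.8 CPM. Sham replicate 2 lay inside the irradiated range, and the other 4 lay below it. The difference was 1.79 ± 0.44 (adjusted p = 0.0124). At 72 h it was at 489, 306, 103, 677 and 49.5 CPM against 43.3, 50.1, 76.8, 46.8 and 57.3 CPM. Of the irradiated animals, 4 lay above all sham animals and replicate 5 lay among them (2.58 ± 0.53, adjusted p = 0.0165). At 96 h the irradiated animals, with 50.4 to 109 CPM, overlapped with sham again (0.07 ± 0.44).

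Several Col12a1 calls rested on few animals. The 24 h call was lost without sham replicate 1, 2, 4 or 5 or irradiated replicate 1, 2 or 3. The 48 h call was lost without sham replicate 4 or 5, and the 72 h call without sham replicate 1, 2, 4 or 5 or irradiated replicate 1 or 4. With the skeletal muscle level as covariate the differences were 0.54 at 24 h, 1.06 at 48 h and 2.07 at 72 h, none called (edgeR adjusted p = 0.0582, 0.103 and 0.0538). Within the title endings they were 0.99 (R1_001) and 0.63 (R1) at 24 h, 0.48 and 2.86 at 48 h and 3.10 and 2.22 at 72 h. Of these the value within R1 at 48 h was called (adjusted p = 0.0031). The R1_001 sham animals at 48 h include replicate 2, which had 151 CPM. Neutrophil markers moved with Col12a1: all 4 rose at 48 and 72 h, with a summed level at 48 h of 2.38 to 16.9 CPM in sham and 32.6, 24.7, 270, 225 and 234 CPM after 40 mJ/cm2. The 3 animals with the most neutrophil RNA at 48 h were those with the most Col12a1, and so were the 2 highest animals at 72 h. At 48 h these 3 are also the R1 libraries of their group, so title ending and neutrophil RNA cannot be told apart there. Of 4 macrophage markers 2 rose at 48 h. Their part in the Col12a1 levels was not tested.

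Col8a1 (ENSMUSG00000068196), a short-chain collagen made around vessels and in repair, rose at 48 h after 40 mJ/cm2. It was at 9.79, 10.5, 8.22, 10.1 and 11.5 CPM in sham and at 18.9, 17.5, 36.3, 26.2 and 25.9 CPM after irradiation. The groups did not overlap. The difference was 1.30 ± 0.23 (edgeR adjusted p = 0.00093), and it was called without any 1 of the animals and with the skeletal muscle covariate (1.09, adjusted p = 0.0116). Within R1_001 libraries it was 0.82 (adjusted p = 0.566) and within R1 libraries 1.57 (adjusted p = 0.0055). The 3 irradiated animals with the most Col8a1 at 48 h were replicates 3 to 5, which also had the most neutrophil RNA and the most Col12a1. These 3 are also the R1 libraries of that group, so title ending and neutrophil RNA cannot be told apart there. The part of neutrophils in these levels was not tested. At 72 h 4 of 5 irradiated animals, with 22.8 to 48.8 CPM, lay above the sham range of 10.6 to 19.5 CPM and replicate 5 below it with 9.25 CPM (0.92 ± 0.38, adjusted p = 0.34).

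Col6a6, a type VI chain, fell at 48 h after 40 mJ/cm2, from 32.5, 51.1, 51.4, 54.4 and 34.7 CPM in sham to 24.5, 27.3, 18.0, 26.2 and 30.0 CPM, without overlap (-0.84 ± 0.25, edgeR adjusted p = 0.0405). Its differences at 5, 10 and 20 mJ/cm2 at that time were -0.81 ± 0.25, -0.60 ± 0.25 and -0.58 ± 0.27, none called, and so not in the order of dose. The call was lost with the muscle covariate (-0.85, adjusted p = 0.0604), without the libraries titled repeat at that time (-0.83, 0.0504), without sham replicate 2, 3 or 4, and without any 1 irradiated animal. The major type VI chains were not called: at 48 h Col6a1 differed by 0.05 ± 0.20, Col6a2 by 0.15 ± 0.26 and Col6a3 by 0.49 ± 0.24 (adjusted p = 0.271). Col22a1, a collagen of tissue junctions such as muscle and tendon, differed by -1.02 ± 0.38 at 48 h (adjusted p = 0.115).

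**Figure D4:**
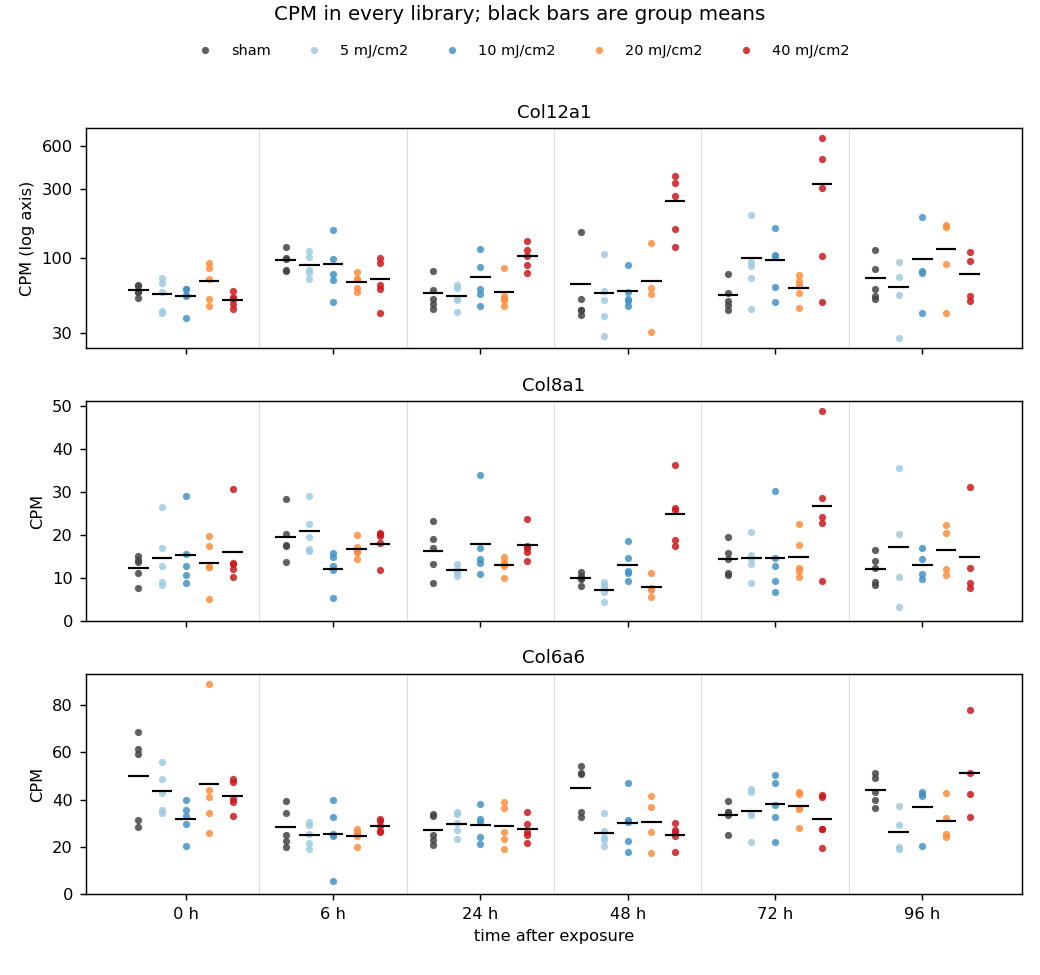
CPM of Col12a1 (log axis), Col8a1 and Col6a6 in each animal for sham and 4 doses at 6 times after exposure. At 48 h after 40 mJ/cm2 Col8a1 lies above and Col6a6 below all sham animals, and at 72 h Col12a1 is spread from 49.5 to 677 CPM.

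The 3 members that fell at 6 h are among the 5 whose genes span the most genome. Col4a6 spans 309 kb, Col23a1 294 kb, Col24a1 260 kb, Col22a1 238 kb and Col4a5 214 kb. Col24a1, a minor fibrillar chain, differed by -0.50 ± 0.25 at 6 h after 40 mJ/cm2 and Col22a1 by -0.06 ± 0.38, neither called. The 22 members over 100 kb had a median difference of -0.33 with 19 below 0 and 3 called, and the 14 shorter members a median of -0.02 with 10 below 0 and 0 called (edgeR). At an unadjusted p under 0.05 there were 3 members in all, the same number as was called, against 17.4% of all genes. Across the 36 genes Spearman's rho between span and difference was -0.58 at 40 mJ/cm2, and -0.25, -0.54 and -0.28 at 5, 10 and 20 mJ/cm2. This is a description across genes of the same libraries, which are not independent. The 4 doses share the sham animals. The limit of 100 kb was a choice. Genes outside the collagens were not compared by span, and the 3 called genes are part of each rho.

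**Figure D5:**
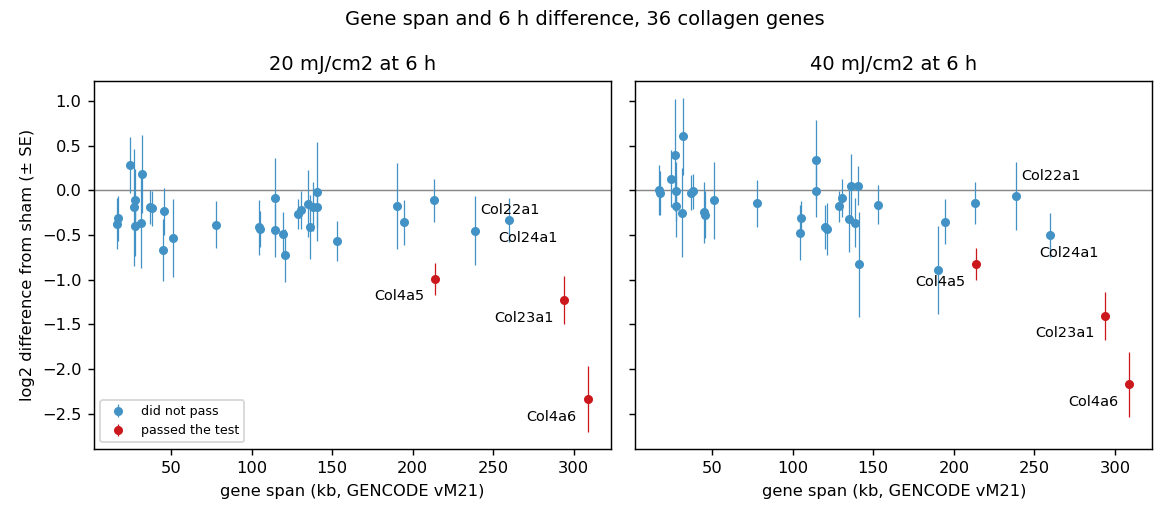
Log2 difference (± SE) of the 36 collagen genes 6 h after 20 (left) and 40 mJ/cm2 (right) against the span of each gene in kb; called genes are red, and the 5 longest are named. After 40 mJ/cm2 the called genes Col4a6, Col23a1 and Col4a5, with spans of 309, 294 and 214 kb, lie at -2.17, -1.40 and -0.82.

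At 6 h most members lay a little below sham after 3 of the 4 doses. After 40 mJ/cm2, 29 of 36 were below 0 with a median of -0.17, against a median of 0.04 over all genes. After 20 mJ/cm2, 34 of 36 were below 0 with a median of -0.34, against 0.02 over all genes. After 5 mJ/cm2, 29 of 36 were below 0 with a median of -0.09. After 10 mJ/cm2, 16 of 36 were below 0 and the median was 0.07, with 0.02 over all genes at both of these doses. The median at 6 h was -0.38 for basement membrane, -0.30 for fibrillar and -0.33 for the other members at 20 mJ/cm2. Fibroblast markers at 6 h had a median of 0.06 at 40 mJ/cm2.

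Whether the difference grew with dose was tested as a slope on log2 dose over the animals given 5 to 40 mJ/cm2, which leaves the sham animals out. At 6 h Col23a1 fell by 0.41 ± 0.10 per doubling of dose (edgeR adjusted p = 0.0334), where 1.42% of all genes were called (0.669% down). The slope of Col4a6 at 6 h was -0.53 ± 0.14 and missed the threshold (adjusted p = 0.067). At 24 h Col4a6 (-0.52 ± 0.09, adjusted p = 0.0030) and Col4a5 (-0.23 ± 0.06, adjusted p = 0.0458) were called, 2 members down against 0.953% of all genes (0.241% down). At 48 h Col1a2 (-0.34 ± 0.09, adjusted p = 0.0277) and Col4a6 (-0.38 ± 0.08, adjusted p = 0.0108) fell with dose. Col8a1 (0.50 ± 0.11, adjusted p = 0.0111) and Col12a1 (0.68 ± 0.12, adjusted p = 0.0026) rose with it, against 3.84% of all genes (2.73% up, 1.11% down). For both genes that rose, the groups at 5 to 20 mJ/cm2 lay near sham, as the 48 h differences of Col12a1 (-0.32, -0.28 and -0.07) and Col8a1 (-0.46, 0.36 and -0.36) show.

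No slope was called at 0 h (0% of all genes), 72 h (0.6%) or 96 h (0.0428%), where edgeR's unadjusted p was under 0.05 for 0, 6 and 2 members (1.94%, 6.92% and 4.07% of all genes). The Col23a1 slope was lost without any of 8 animals, namely 5 mJ/cm2 replicate 2 or 4, 10 mJ/cm2 replicate 2, 20 mJ/cm2 replicate 1 or 40 mJ/cm2 replicates 2 to 5. The Col4a5 slope at 24 h was lost without any of 16 of 20 animals, and kept without 5 mJ/cm2 replicate 2, 10 mJ/cm2 replicate 4, 20 mJ/cm2 replicate 3 or 40 mJ/cm2 replicate 4. The Col1a2 slope at 48 h was lost without 5 mJ/cm2 replicate 2 or any 1 of the 40 mJ/cm2 animals. The slopes of Col4a6 at 24 and 48 h and of Col8a1 and Col12a1 at 48 h were called without any 1 animal. The slopes of Col8a1 and Col12a1 were lost with the skeletal muscle covariate.

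The effect of 40 mJ/cm2 changed between 6 and 48 h for 2 members, Col12a1 and Col23a1, where 0.985% of all genes were called (0.916% up). The Col12a1 difference was 2.33 ± 0.52 higher at 48 h than at 6 h (edgeR adjusted p = 0.0064), and that of Col23a1 1.73 ± 0.33 higher (adjusted p = 0.00058). Both calls held without any 1 of the 20 animals. For Col8a1 the change was 1.43 ± 0.48 (adjusted p = 0.135), for Col4a6 1.06 ± 0.40 (0.226) and for Col1a2 -0.88 ± 0.33 (0.222), none called, so the early fall of Col4a6 and the late fall of Col1a2 are not shown to differ between these times. Between 48 and 96 h no member's effect was called to change by edgeR (0.0696% of all genes) or DESeq2. The unadjusted p was under 0.05 for 5 members (9.19% of all genes), among them Col12a1 with -1.82 ± 0.54.

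Some collagen genes were also called between sham animals taken at different times. Against sham at 0 h, 1 member rose at 6 h (2.83% of all genes called, 0.921% up), and 3 rose and 3 fell at 24 h (4.63%, 1.75% up and 2.88% down). At 48 h 2 rose and 1 fell (6.34%, 2.04% up and 4.3% down). At 72 h 1 rose and 1 fell (3.94%, 1.63% up and 2.31% down), and so did 1 and 1 at 96 h (5.12%, 1.22% up and 3.9% down). The called members are 2.78%, 16.7%, 8.33%, 5.56% and 5.56% of the 36 at 6, 24, 48, 72 and 96 h. Apart from 24 h these are near the shares of all genes, and the list as such was not tested. All 5 tests share the sham animals at 0 h. Skeletal muscle differed between these animals too, with summed marker levels of 12761 to 22106 CPM in sham at 0 h, 20747 to 43818 CPM at 6 h, 26942 to 42147 CPM at 24 h and 29856 to 49853 CPM at 48 h. They were 18789 to 49168 CPM at 72 h and 21910 to 45956 CPM at 96 h. With the muscle level as covariate, 10 of the 14 calls described next were lost and 4 were kept.

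Col6a5, a type VI chain, was at 6.84, 6.67, 16.9, 10.2 and 12.1 CPM in sham at 0 h and at 4.47, 5.86, 5.00, 4.72 and 4.72 CPM at 24 h. The 2 groups did not overlap. It fell by 1.11 ± 0.24 on the log2 scale at 24 h (edgeR adjusted p = 0.0057), by 1.04 ± 0.24 at 48 h (0.0110), by 1.22 ± 0.24 at 72 h (0.0047) and by 0.87 ± 0.24 at 96 h (0.0334). The 96 h call was lost without sham 0 h replicate 3 or without sham 96 h replicate 1, 3, 4 or 5. With the muscle covariate the Col6a5 differences were -0.56 at 24 h, -0.39 at 48 h, -0.71 at 72 h and -0.39 at 96 h, of which only that at 72 h was called (edgeR adjusted p = 0.0365, the others 0.0843, 0.313 and 0.274). Col27a1, a minor fibrillar chain, was at 4.38, 4.54, 6.17, 10.7 and 8.96 CPM at 0 h and at 14.1, 15.3, 18.9, 13.3 and 25.1 CPM at 96 h, without overlap. It rose by 1.05 ± 0.27 at 48 h (adjusted p = 0.0209) and 1.29 ± 0.27 at 96 h (0.0045); the 48 h call was lost without sham 0 h replicate 2 or 3 or sham 48 h replicate 1 or 3. With the muscle covariate the 96 h difference was called (1.26, adjusted p = 0.0105) and the 48 h difference was not (1.00, adjusted p = 0.0592).

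Col4a6 rose in sham from 23.5, 16.6, 14.5, 16.9 and 21.5 CPM at 0 h to the levels given above at 6 h (0.58 ± 0.15, edgeR adjusted p = 0.0338), 24 h (0.68 ± 0.15, 0.0080) and 72 h (0.68 ± 0.15, 0.0103). The 6 h call was lost without sham 0 h replicate 2, 3 or 4 or sham 6 h replicate 1, 2 or 3. All 3 Col4a6 calls were lost with the muscle covariate, where the differences were 0.34, 0.37 and 0.34 (edgeR adjusted p = 0.0811, 0.0752 and 0.111). At 24 h Col28a1, a collagen known from peripheral nerve, rose (0.75 ± 0.17, adjusted p = 0.0101), and so did Col22a1 (1.52 ± 0.42, 0.0364), which rose at 48 h as well (1.56 ± 0.43, 0.0292). Col6a6 (-0.90 ± 0.24, 0.0265) and the fibril-associated Col14a1 (-0.67 ± 0.19, 0.0458) fell at 24 h. The calls of Col22a1, Col6a6 and Col14a1 were lost without 1 of several animals. Both Col22a1 calls were lost without sham 0 h replicate 2, 3 or 4, without sham 24 h replicate 1, 2, 3 or 5 for the first and without sham 48 h replicate 1, 4 or 5 for the second. That of Col6a6 was lost without sham 0 h replicate 1 or 4 or sham 24 h replicate 3, 4 or 5. That of Col14a1 was lost without sham 0 h replicate 1, 3 or 4 or sham 24 h replicate 1, 2, 4 or 5. With the muscle covariate Col28a1 (0.91, adjusted p = 0.0032) and Col6a6 (-1.45, 0.00066) were called at 24 h. Col14a1 (-0.27, 0.317) and Col22a1 (0.29, 0.519 at 24 h and 0.0096, 0.99 at 48 h) were not. No sham difference was called within 1 title ending.

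Of 32 genes of the machinery that folds, trims and cross-links collagen, 31 were tested. In edgeR 1 was called at 6 h and 3 at 48 h after 40 mJ/cm2, against 4.89% and 7.73% of all genes. At 6 h after 40 mJ/cm2, P3h2, a prolyl 3-hydroxylase, fell (-1.18 ± 0.24, edgeR adjusted p = 0.0048). At 48 h P4ha3, a subunit of prolyl 4-hydroxylase, rose (2.98 ± 0.55, adjusted p = 0.0014), and so did the cross-linking enzyme Loxl3 (0.99 ± 0.25, 0.0155). Pcolce2, an enhancer of procollagen trimming, fell (-0.73 ± 0.21, 0.0308). The medians of the list were 0.07 at 6 h and -0.11 at 48 h, beside 0.04 and -0.01 over all genes, and 0 of 31 were called at 24, 72 and 96 h by edgeR, with an unadjusted p under 0.05 for 5, 5 and 1, against 16.4%, 11% and 4.74% of all genes.

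Of 23 genes of proteins that bind or organise fibrils, 3 rose and 3 fell at 48 h after 40 mJ/cm2 (3.97% of all genes up, 3.76% down), with a median of -0.02. Thbs1 (1.75 ± 0.41, edgeR adjusted p = 0.0095) and Thbs2 (1.26 ± 0.23, 0.0013), the thrombospondins, and Fbln2, a fibulin (0.96 ± 0.25, 0.0194), rose. Fmod, a proteoglycan that binds type I fibrils (-0.62 ± 0.19, 0.0474), Sparc, a collagen-binding matrix protein (-0.87 ± 0.24, 0.0278), and the microfibril gene Mfap4 (-1.28 ± 0.27, 0.0046) fell. None was called at 6, 24, 72 or 96 h by edgeR, where the unadjusted p was under 0.05 for 1, 2, 7 and 1, against 17.4%, 16.4%, 11% and 4.74% of all genes.

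Among 9 collagen receptors tested, Itga2, the alpha chain of a collagen-binding integrin of keratinocytes, fell at 6 h after 40 mJ/cm2 (-0.76 ± 0.22, edgeR adjusted p = 0.0438). Lair1, an inhibitory collagen receptor of leukocytes, rose at 48 h (1.25 ± 0.29, 0.0088). In a list of collagen-degrading enzymes 9 genes were tested and Mmp1a was not. Of these 9, Mmp1b rose at 24 h (4.87 ± 0.88, 0.0051) and 48 h (4.46 ± 1.00, 0.0122). Whether its product cuts collagen was not examined here. Mmp8, the collagenase of neutrophils, rose at 48 h (3.57 ± 0.61, 0.00063) and 72 h (3.50 ± 0.70, 0.0157), the times at which the neutrophil markers rose. Of 16 regulators around TGF-beta, which drives collagen synthesis, Tgfb1 rose (0.88 ± 0.22, 0.0130) while Tgfb2 (-0.77 ± 0.24, 0.0494) and the signal carrier Smad3 (-0.44 ± 0.13, 0.0438) fell at 48 h. Over all genes, edgeR called 4.89% at 6 h, 2.92% at 24 h, 7.73% at 48 h and 1.26% at 72 h after 40 mJ/cm2. At 20 mJ/cm2 edgeR called no gene of these 5 lists at any time, and the unadjusted p was under 0.05 for 0 to 7 genes of a list. Over all genes that share at 20 mJ/cm2 was 5.6% at 0 h, 6.61% at 24 h, 21.3% at 48 h, 1.1% at 72 h and 4.23% at 96 h. The share at 6 h is not given here, so list counts of that time have no background beside them.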

How the data were processed

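Stranded poly(A) libraries of 145 dorsal skin samples were prepared and sequenced as single reads of 75 bases, per the labels' protocols. The stated input is 300 ng RNA, but the titles of 2 libraries at 48 h (5 and 20 mJ/cm2) carry other amounts in ng. What the authors deposited is a gene table of expected counts, which assign shared reads by estimate; 12.6% of its values are not whole. Tools named in the submitters' processing notes are STAR 2.7.10a, bcl2fastq 2.20.422, DESeq2 1.36.1 and fastp 0.23.0, with the build GRCm39. The counting program, annotation and use of strand are not given in the sources used, so genes that overlap, or lie antisense to another, are uncertain. Of 55416 identifiers, 52083 received a symbol from GENCODE vM21 (build GRCm38, also the source of spans and joint exon lengths), and the rest hold 0.0906% of the counts.

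Rounded counts were tested in edgeR 4.0.16 (R 4.3.3) by two-sided quasi-likelihood tests, with TMM scaling and filterByExpr over the 30 groups, which kept 18677 genes. P-values were adjusted by Benjamini-Hochberg over all genes within a comparison. Each time had its own fit of its 5 dose groups, and the covariate was the title ending. Changes of the 40 mJ/cm2 effect came from 1 fit of all libraries, and sham times from a fit of the sham libraries. SEs come from the fold and the F value, and CPM uses TMM-scaled totals. Ratios per length were tested by exact permutation. Members, classes, lists and ratios were chosen with earlier results of these data known. The rule names members called in any test and the 3 of each class highest per length. Other members named beside them (Col3a1 is among the 3 highest) were chosen after their values were seen. A result of the regulator list is not reported here. Alternatives were RLE scaling, no filter, DESeq2 1.42.0, no covariate, muscle or hair shaft level as covariate, 1 title ending, libraries over 1 M, leaving out the libraries titled repeat (chosen after the data were seen), 2 groups alone, 1 fit of all libraries, and each animal left out.

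Among 280 pairs of libraries within groups the highest correlation was 0.990 and none was identical. P-values measure the spread between animals. Total counts ran from 0.18 to 64.6 M. The labels mark libraries by the title ending and by 5 titles that begin with repeat. Some titles also carry an RNA amount in ng, or an extra number or S code after the animal number. What these extra numbers and codes mean is not given.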

Additional observations from a re-analysis of the deposited data

Results flagged for a closer look

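The values of each called member were examined within each group of its comparison, which made 31 sets of 5 animals. Of these sets, 3 held an animal far from the others, where chance gives about 1 in 20. The sets share animals and are not independent. After 20 mJ/cm2 at 6 h, replicate 5 had 10.4 CPM of Col4a6 against 3.99 to 5.11 CPM in the other 4. After 40 mJ/cm2 at 6 h, replicate 1 had 12.6 CPM of Col4a6 against 3.03 to 5.75 CPM. Both animals lay on the sham side of their group, and the Col4a6 calls held without either. In sham skin at 48 h, replicate 2 had 151 CPM of Col12a1 against 39.8 to 51.9 CPM. The same animal stood apart in Col11a1 and in hair shaft markers, and the Col12a1 call at 48 h held without it.

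For 2 members the effect of 40 mJ/cm2 differed between times by the test of that difference. The log2 effect on Col12a1 was 2.33 higher at 48 h than at 6 h, and that on Col23a1 was 1.73 higher. Within the title endings these changes were 1.05 (R1_001) and 2.98 (R1) for Col12a1 and 1.50 and 1.79 for Col23a1, none of them called by edgeR.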

How the results depend on the processing

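Of 40 calls of collagen genes, all 40 kept their direction under every alternative run and in every fit without 1 animal, and 21 stayed called without any 1 animal. Of the counts of called members under the alternatives, 121 were within 1.5 times the main count and 27 were not. In the R1 libraries alone the counts at 40 mJ/cm2 were 0 at 6 h, 0 at 24 h, 3 at 48 h and 0 at 72 h, and 0 for 20 mJ/cm2 over all times, the slope, the change of effect from 6 to 48 h and the sham times. In the R1_001 libraries alone they were 0 at 24, 48 and 72 h and 0 for the slope, the change of effect and the sham times. These fits hold 1 to 3 animals a group; an arm with 1 animal (R1_001: 20 mJ/cm2 at 48 h and 5, 20 and 40 mJ/cm2 at 96 h) is assumed to vary like the other groups. With the muscle level as covariate the counts were 7 at 24 h, 1 at 72 h, 4 for the change of effect and 60 for the sham times against 14, although 10 of those 14 calls were lost; the cause was not tested. That covariate also lost 5 of the 17 calls of a dose against sham and 2 of 7 slopes. Without the filter they were 1 at 24 h and 9 for the sham times. Without the 5 libraries titled repeat, 1 call of a dose against sham (Col6a6 at 48 h) and 1 slope (Col4a5 at 24 h) were lost. Fits of the 2 groups alone lost 4 of 17 calls (Col12a1 at 24 and 72 h, Col4a6 at 72 h and Col23a1 at 20 mJ/cm2). Of the 17, 1 fit of all libraries and the missing filter each lost Col1a1 at 48 h and Col12a1 at 24 h, and the hair shaft covariate Col12a1 at 24 h and Col23a1 at 20 mJ/cm2. Without the filter 5 of 14 sham calls (Col4a6 at 6 h, Col6a6, Col14a1 and Col28a1 at 24 h, Col6a5 at 96 h) and the slopes of Col4a5 and Col1a2 were lost. DESeq2 gave 4 at 72 h and 5 for 20 mJ/cm2. The hair shaft covariate gave 1 at 24 h, 1 fit of all libraries 1 at 24 h and 5 at 72 h, and fits of the 2 groups alone 1 at 24 h and 0 at 72 h; the cause was not tested.

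Without 1 animal each, the counts at 40 mJ/cm2 ran from 0 to 0 at 0 h, 3 to 3 at 6 h, 1 to 3 at 24 h, 4 to 7 at 48 h, 0 to 4 at 72 h and 0 to 0 at 96 h. They ran from 1 to 5 for 20 mJ/cm2 and 0 to 0 for 10 and 5 mJ/cm2, summed over times. They were 6 to 11 for the slope, 2 to 3 for the change from 6 to 48 h, 0 to 1 for that from 48 to 96 h and 9 to 19 for the sham times; the fits of all libraries kept the trended dispersion of the full fit. No paired analysis was possible because the labels give no replicate numbers and the numbers used here only name animals. Depth limits members near 1 CPM, such as Col11a2, which were at 0 in some libraries.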
